A study of Mus musculus with 8 samples.

Results

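The genes described here are 48 mitosis and spindle genes, whose products drive cells into mitosis, build the spindle, check chromosome attachment and split the cell. They were chosen by name and taken as every array probe whose platform gene symbol was one of the 48, among 16593 genes with a named probe. Of the 48 genes, 41 had a named probe and 27 passed the detection filter (2 or more of the 8 arrays with a detection p under 0.05), among 7916 genes that did. RNA came from CD4 T cells sorted from spleen and small intestine ("gut") as live TCRb+CD4+CD8-B220- cells, either GFP+ (Treg, the Foxp3-expressing regulatory T cells) or GFP- (Tcon, the conventional T cells). The mutant line, called K14 here, had the genotype K14Aβb, FOXP3GFP and, per the series' design text, lacks MHC class II outside the thymus, and the control mice were MHCII+/-, FOXP3GFP. All groups shared the FOXP3GFP reporter and the C57B6 strain, with males and females of 7 to 14 weeks mixed. In K14 lines the class II gene is driven by a keratin promoter, so thymic epithelium can select CD4 T cells that then meet little class II in the periphery. Each of the 8 combinations of genotype, tissue and cell type was 1 pool of several mice on 1 Illumina bead array, so a comparison is replicated only over 4 matched pairs of arrays. The labels number the control arrays 1 and the K14 arrays 2 and do not say whether the arrays of a genotype came from the same mice, so the 4 pairs may share mice and their spread may leave out that between sets of mice.

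Resting T cells hold mitotic genes low and switch them on together in G2, as a cell that has copied its DNA prepares to divide. In mouse and human cells this wave depends on promoters with a CHR element, bound by the MuvB complex with either repressors or the activators Mybl2 (B-Myb) and Foxm1, and on CCAAT boxes bound by NF-Y. Cdk1 with its cyclins then starts mitosis, kinesins and the kinetochore arrange the chromosomes, the checkpoint holds anaphase, and Cdc20 with the anaphase-promoting complex releases it. In a sorted T cell pool these transcripts are used as a readout of dividing cells, and on bulk RNA more dividing cells and more RNA per dividing cell cannot be told apart.

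The shared promoter elements were read from RefSeq windows of build GRCm38.p6 that run from 250 bases before to 50 after each annotated start, and 42 of 48 members matched by symbol (all but Kif20a, Ccna2, Aurkb, Tpx2, Foxm1 and Smc4). The letters TTTGAA (CHR), on either strand, stood in 34 of 45 member windows (75.6%), against 17.9% of 32851 windows of all genes. CCAAT, on either strand, stood in 33 of the 45 member windows (73.3%), against 37.4% of all windows. Both motifs together stood in 28 member windows (62.2%), against 6.95% of all. By contrast, TTCCCGC, one form of the E2F site of DNA replication genes, stood in 1 member window (2.22%), against 4.60% of all and 16 of 43 windows of the listed DNA replication genes (37.2%). A second E2F form, TTTGGCGC, stood in 2 member windows (4.44%, against 0.514% of all) and the CHR variant TTCGAA in 3 (6.67%, against 1.56%). Overlapping matches were each counted, and TTCGAA, which reads alike on both strands, was counted once. Of 45 CHR matches in member windows, 34 began between -60 and 40 relative to the start (75.6%), against 26.9% of the matches in all windows. The CHR followed a CCAAT box in all 28 member windows with both, against 1227 of 2284 such windows of all genes, and the nearest pair lay 20 to 40 bases apart, first base to first base, in 14 of the 28 (50%), against 282 of the 2284 (12.3%). These zones were set after the positions were seen, and a match is a description of letters, not a site or a cause.

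The 6 promoters shown are those of the members with the largest K14 minus control differences in all 4 pairs that hold a CHR. Capitals mark the CHR (TTTGAA, or TTCAAA where it lies on the other strand) and the CCAAT box (CCAAT or ATTGG), each sequence reads 5′ to 3′ along the gene's strand, and all are RefSeq GRCm38.p6. Their positions are Bub1b chr2:118597961-118598260 (plus strand), Kif4 chrX:100625815-100626114 (plus strand), Kif15 chr9:122950831-122951130 (plus strand), Kif11 chr19:37376132-37376431 (plus strand), Cdk1 chr10:69352863-69353162 (minus strand), Top2a chr11:99024140-99024439 (minus strand).
Bub1b: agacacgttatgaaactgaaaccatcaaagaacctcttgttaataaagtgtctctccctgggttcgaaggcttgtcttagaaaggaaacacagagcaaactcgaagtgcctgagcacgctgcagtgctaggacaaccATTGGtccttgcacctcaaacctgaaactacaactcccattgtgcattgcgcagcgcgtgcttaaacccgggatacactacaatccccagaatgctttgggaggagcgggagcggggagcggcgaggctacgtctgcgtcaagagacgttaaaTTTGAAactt
Kif4: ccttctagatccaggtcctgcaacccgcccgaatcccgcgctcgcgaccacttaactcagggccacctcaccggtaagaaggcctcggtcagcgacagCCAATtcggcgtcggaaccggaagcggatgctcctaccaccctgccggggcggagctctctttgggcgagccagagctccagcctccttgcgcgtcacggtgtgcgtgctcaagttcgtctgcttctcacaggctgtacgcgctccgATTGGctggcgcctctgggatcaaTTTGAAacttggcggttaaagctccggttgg
Kif15: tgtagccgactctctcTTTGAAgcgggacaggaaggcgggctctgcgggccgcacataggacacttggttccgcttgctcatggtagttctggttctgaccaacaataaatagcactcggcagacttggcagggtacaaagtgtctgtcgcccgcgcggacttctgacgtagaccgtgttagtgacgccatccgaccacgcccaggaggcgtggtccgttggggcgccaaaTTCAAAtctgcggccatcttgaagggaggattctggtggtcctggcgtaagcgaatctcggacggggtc
Kif11: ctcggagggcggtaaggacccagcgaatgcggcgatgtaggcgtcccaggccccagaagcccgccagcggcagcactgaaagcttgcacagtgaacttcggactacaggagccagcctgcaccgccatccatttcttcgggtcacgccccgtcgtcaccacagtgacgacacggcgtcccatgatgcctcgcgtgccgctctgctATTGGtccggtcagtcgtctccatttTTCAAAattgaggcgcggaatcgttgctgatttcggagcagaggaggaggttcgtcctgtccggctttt
Cdk1: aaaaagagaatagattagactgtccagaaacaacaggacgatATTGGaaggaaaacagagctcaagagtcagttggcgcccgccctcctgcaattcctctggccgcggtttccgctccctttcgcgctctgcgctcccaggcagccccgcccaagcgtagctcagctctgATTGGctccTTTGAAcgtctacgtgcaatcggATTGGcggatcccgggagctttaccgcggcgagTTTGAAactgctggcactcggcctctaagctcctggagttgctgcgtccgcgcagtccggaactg
Top2a: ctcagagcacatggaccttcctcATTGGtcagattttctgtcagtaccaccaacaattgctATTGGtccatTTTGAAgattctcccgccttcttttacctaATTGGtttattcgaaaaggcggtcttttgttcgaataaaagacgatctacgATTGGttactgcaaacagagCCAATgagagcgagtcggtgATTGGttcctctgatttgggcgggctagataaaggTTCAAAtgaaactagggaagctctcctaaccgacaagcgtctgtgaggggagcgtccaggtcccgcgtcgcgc
In Kif11 the CHR began at -19, 26 bases after a CCAAT box at -45. In Cdk1 one CHR began at -71 and another at -15, with CCAAT boxes at -208, -80 and -48. Top2a held 6 CCAAT boxes and CHRs at -179 and -23, Kif4 a CHR at 20, and Bub1b a CHR at 41. Kif15 had CHRs at -234 and -19 and no CCAAT box. Of the 12 members named for the genotype comparison, Nusap1 and Birc5 held neither motif in this window, and neither did Mybl2.

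**Figure D1:**
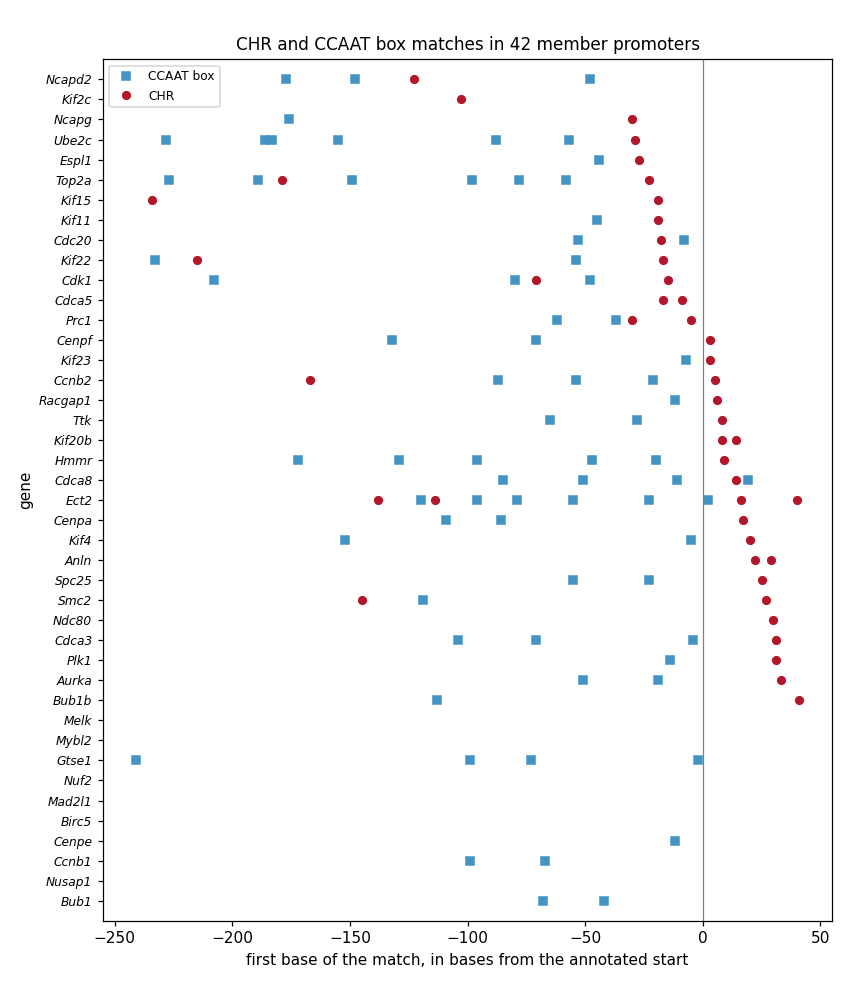
Positions of CHR (red circles) and CCAAT box (blue squares) matches, on either strand, in the promoter windows of 42 members, 1 row a gene, with the first base of each match in bases from the annotated start (genes with 2 windows share a row). Of 45 CHR matches, 34 lie between -60 and 40, mostly to the right of a CCAAT box.

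The arrays were alike in overall detection, with 40.4% to 43.6% of 16593 genes detected on each. They differed in the members: of 41 with a probe, the K14 arrays detected 26 (gut Treg), 24 (gut Tcon), 27 (spleen Treg) and 20 (spleen Tcon), against 16, 19, 22 and 20 on the matching control arrays. H2-Ab1, the class II beta chain gene, read 10.94 to 13.38 (normalized log2 signal) on the K14 arrays and 10.995 to 12.25 on the control arrays, so it does not check the genotype labels, and each genotype direction here rests on those labels. Il2ra, a receptor chain high on Treg, read 7.90 to 9.27 on the 4 Treg arrays and 5.52 to 6.21 on the 4 Tcon arrays, which fits the sort labels, though the Foxp3 probe itself read 6.76 to 6.95 on Treg and 6.93 to 7.08 on Tcon arrays. The T cell gene Cd3e was detected on all 8. No chip or scan batch is given in the sources used here.

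The 7 members without a named probe, not analysed here, were the cyclin Ccnb1, the kinase Aurkb, the kinesin Kif20b, the kinetochore protein Cenpf, the condensin subunits Ncapg and Smc4, and the centralspindlin subunit Racgap1. The 14 with a probe that did not pass the filter were Bub1, Ccna2, Ccnb2, Cdca8, Cenpe, Ect2, Hmmr, Kif20a, Melk, Nuf2, Smc2, Tpx2, Ttk and Ube2c, and their probes were not above background on any array. Genes of the same steps (Cdk1 for Ccnb2, Bub1b for Bub1 and Ttk, Cdc20 for Ube2c) were detected, and whether the silent probes or the RNA differ was not tested. The 27 tested members include 12 detected on all 8 arrays, namely Cdc20, Cdca3, Cenpa, Foxm1, Gtse1, Kif22, Kif23, Mad2l1, Ncapd2, Plk1, Prc1 and Top2a. Cdk1 and Kif11 passed the filter through K14 arrays alone, Espl1 through Treg arrays alone and Mybl2 through K14 Treg and control Tcon arrays alone, so a difference of that kind in them was built into the filter.

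Across the 8 arrays the members moved largely as a block. After each gene was set to its own mean over the arrays, the median of the 27 was highest on the K14 spleen Treg array at 1.55 (log2), with 27 of 27 members above their mean. The K14 gut Treg array followed at 0.69 (26 members above) and the K14 gut Tcon array at 0.59 (19 above). The control spleen Treg array lay at 0.01 and the K14 spleen Tcon array at -0.01. Lowest were the control arrays of spleen Tcon at -0.67, gut Tcon at -0.82 and gut Treg at -0.94, with 4, 5 and 3 members above their mean. The median of all 7916 genes stayed between -0.05 and 0.05 on every array.

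**Figure D2:**
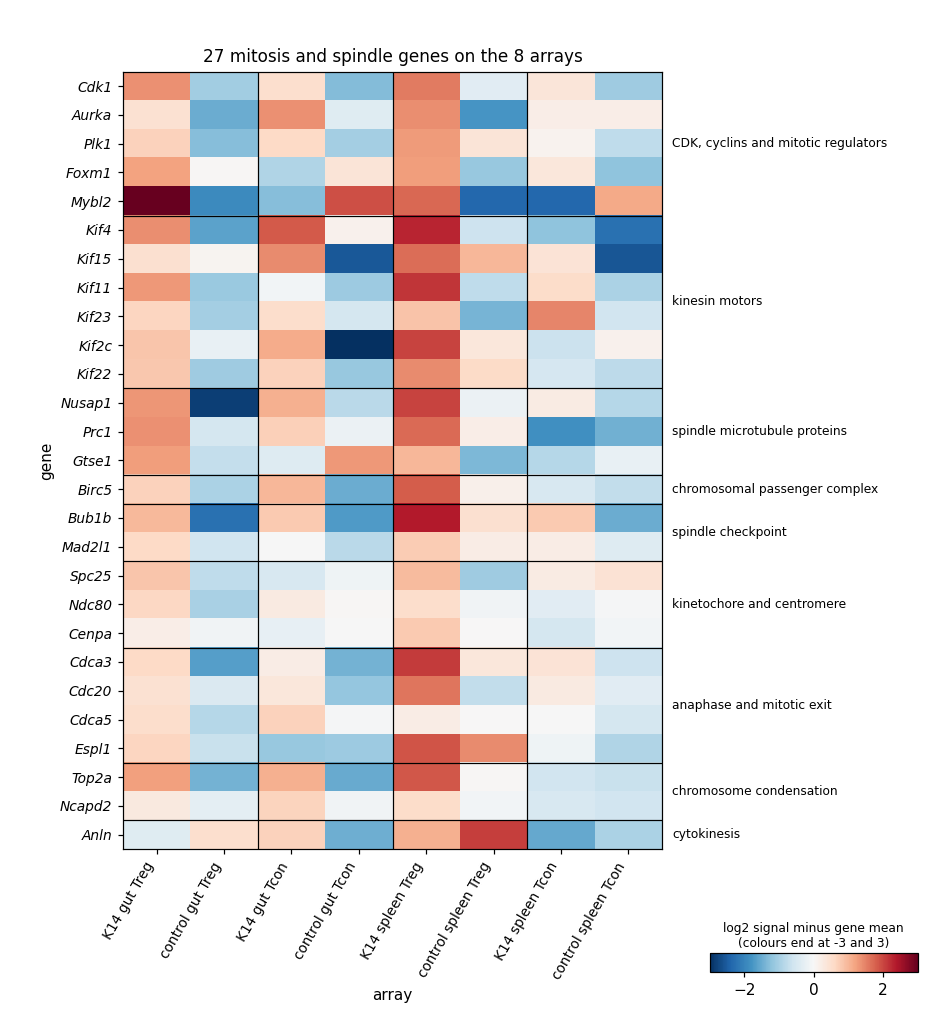
Normalized log2 signal of the 27 measured members on the 8 arrays, each gene minus its own mean over the arrays (red above, blue below, colours ending at -3 and 3), with the K14 array left of its control in each of 4 pairs and genes grouped by role. The K14 spleen Treg column is red in all 27 rows, and the Mybl2 row crosses between Treg and Tcon.

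K14 against control asks whether CD4 T cells from mice that lack class II outside the thymus hold more or less mitotic RNA. Of the 27 tested members, 26 were higher on the K14 arrays on average over the 4 pairs and 1, Anln, was lower. The median difference (K14 minus control) was 1.34 on the log2 scale, against -0.01 over all 7916 genes. No member had an adjusted p under 0.05 (limma with Benjamini-Hochberg over all genes), and neither had any gene (0% of 7916). At an unadjusted p under 0.05, 17 of the 27 were higher, where 3.90% of all genes were, and 0 were lower, where 4.11% of all genes were. In all 4 pairs 16 of the 27 were higher, against 7.88% of all genes, though of these Kif4 and Birc5 were not above background on either spleen Tcon array. In 6 (Bub1b, Nusap1, Kif11, Cdk1, Kif23 and Cdc20) every K14 array lay above every control array, against 1.11% of all genes. For Cdk1 and Kif11, which passed the filter through K14 arrays alone, that was built into the filter. Since the filter favours genes high on some arrays, the 12 members detected on all 8 bear more on the comparison: all 12 were higher, with a median of 1.09, 8 of them at an unadjusted p under 0.05 and 8 in all 4 pairs. In 2 of the 12, Kif23 and Cdc20, every K14 array lay above every control array. Over all 41 members with a probe and no filter the median was 0.62, and over the 27 with the authors' log2 values it was 0.65.

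By pair, the median over the 27 members was 1.65 in gut Treg, 1.48 in gut Tcon, 1.75 in spleen Treg and 0.51 in spleen Tcon. For the 12 detected everywhere these medians were 1.76, 0.97, 1.63 and 0.42. The spleen Tcon pair was thus the flattest in both sets, and leaving it out gave a median over the 27 of 1.58. In what follows, the 4 values of a genotype are normalized log2 signals in the order gut Treg, gut Tcon, spleen Treg and spleen Tcon. A difference is K14 minus control on the log2 scale, averaged over the 4 pairs. The value after ± is its SE from limma, in which each gene's variance is moderated by that of all genes.

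Of the regulators that start and run mitosis, 5 of 9 were measured and all 5 were higher in K14, with a median of 1.34. Cdk1, the kinase of mitotic entry, read 8.02, 7.16, 8.21 and 7.01 on the K14 arrays, against 5.61, 5.35, 6.32 and 5.58 on the control arrays. No control array was above background for Cdk1 and all 4 K14 arrays were, a difference of 1.89 ± 0.21 that amounts to at least 1.87-fold (adjusted p = 0.186, rank 9 of 7916 by p). The bound sets undetected arrays at the lowest signal that was above background there. Plk1, a kinase of centrosome and spindle maturation, read 10.74, 10.65, 11.34 and 10.17 on the K14 arrays, against 8.78, 9.04, 10.44 and 9.29 on the control arrays. It was higher in each pair, though the control spleen Treg array lay above the K14 spleen Tcon array, and the difference was 1.34 ± 0.25 (adjusted p = 0.355). Aurka, the centrosomal Aurora kinase, was 1.71 ± 0.52 higher with 1 flat pair, spleen Tcon at -0.01. Foxm1, a transcription factor of G2 genes, was 0.95 ± 0.61 higher, with the gut Tcon pair at -1.27. Mybl2 averaged 0.60 ± 1.75, over pairs of opposite sign.

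The kinesin motors formed the role group with the largest median among groups of 3 or more, 1.85, with 6 of 8 measured, 6 of 6 higher and 5 of 6 higher in every pair. Kif11 (Eg5), the motor that pushes the spindle poles apart, read 8.11, 6.72, 8.96 and 7.37 on the K14 arrays, against 5.69, 5.73, 6.04 and 5.87 on the control arrays. Like Cdk1 it was above background on all K14 arrays and on no control array, and the difference of 1.96 ± 0.36 amounts to at least 2.13-fold (adjusted p = 0.355). Kif23, the motor of the centralspindlin complex that marks the cleavage plane, read 10.14, 10.04, 10.36 and 10.98 on the K14 arrays, against 8.50, 8.99, 8.13 and 8.94 on the control arrays. The groups did not overlap, all 8 arrays detected it, and the difference was 1.74 ± 0.24 (adjusted p = 0.242). Kif4, a motor on chromosome arms and the central spindle, read 9.27, 9.74, 10.18 and 6.67 on the K14 arrays, against 6.28, 8.02, 7.27 and 5.65 on the control arrays. It was not above background on either spleen Tcon array or on the control gut Treg array, the other pairs were higher in K14, and the difference was 2.16 ± 0.39 (adjusted p = 0.352). Kif15, which helps hold the bipolar spindle, read 8.49, 9.43, 9.68 and 8.41 on the K14 arrays, against 8.09, 5.46, 8.99 and 5.44 on the control arrays. Its difference of 2.01 ± 0.67 (adjusted p = 0.549) came mostly from Tcon, where neither control array detected it. Kif22, a motor that pushes chromosome arms to the spindle equator, was 1.20 ± 0.33 higher in K14 and higher in every pair. Kif2c, which takes microtubules apart at centromeres, was 1.67 ± 0.87 higher, from 4.68 in gut Tcon to -0.76 in spleen Tcon. The control gut Tcon array did not detect Kif2c, so the size of the gut Tcon difference is not measured.

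Among spindle microtubule proteins and the checkpoint, Nusap1 and Bub1b showed the largest differences of all members. Bub1b (BubR1), a checkpoint kinase that restrains Cdc20 until chromosomes attach, read 9.39, 9.21, 10.80 and 9.20 on the K14 arrays, against 6.17, 6.73, 8.91 and 6.94 on the control arrays. Every K14 array lay above every control array, and the difference of 2.46 ± 0.25 ranked 5 of 7916 by p and 14 by size (adjusted p = 0.186). Nusap1, which bundles spindle microtubules near chromosomes, read 10.37, 10.12, 11.09 and 9.29 on the K14 arrays, against 6.22, 8.23, 8.88 and 8.19 on the control arrays. The groups did not overlap, with the widest gap in gut Treg (4.15) and the narrowest in spleen Tcon (1.10), and the mean was 2.34 ± 0.51 (adjusted p = 0.470). Neither Bub1b nor Nusap1 was above background on the control gut Treg array, so the size of the gut Treg gap is not measured for either. Mad2l1 (Mad2), the other measured checkpoint protein, was 0.78 ± 0.18 higher in K14, from 0.52 to 1.21 over the pairs. Prc1, which crosslinks the midzone microtubules, was 0.98 ± 0.41 higher with the spleen Tcon pair at -0.40, and Gtse1, a microtubule-binding protein of G2 cells, 0.50 ± 0.76 with pairs of both signs.

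In the group listed under anaphase and mitotic exit, which also holds Cdca3 and Cdca5, 4 of 5 members were measured, all higher in K14, with a median of 1.02. Cdc20, the activator of the anaphase-promoting complex, read 11.46, 11.32, 12.61 and 11.27 on the K14 arrays, against 10.55, 9.85, 10.25 and 10.65 on the control arrays. These did not overlap, and the difference was 1.34 ± 0.32 (adjusted p = 0.506). Cdca3, which promotes mitotic entry by way of Wee1 destruction, read 11.04, 10.67, 12.54 and 10.86 on the K14 arrays, against 8.79, 9.03, 10.79 and 9.82 on the control arrays. It was higher in each pair by 1.04 to 2.25, 1.67 ± 0.23 on average (adjusted p = 0.242), though the K14 gut Tcon array lay below the control spleen Treg array. Cdca5 (sororin), which keeps sister chromatids joined, was 0.70 ± 0.24 higher in K14, and Espl1 (separase), which cuts that bond, 0.62 ± 0.26. No Tcon array detected Espl1, so its Tcon pairs hold no measured difference.

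In the chromosome group, Top2a, the topoisomerase that untangles sister DNA, read 9.42, 9.25, 10.05 and 7.63 on the K14 arrays, against 6.77, 6.67, 8.23 and 7.53 on the control arrays. The gut pairs differed by 2.65 and 2.58 and spleen Tcon by 0.10, for a mean of 1.78 ± 0.47 (adjusted p = 0.521). Birc5 (survivin), the one measured member of the chromosomal passenger complex, read 7.90, 8.22, 9.03 and 6.73 on the K14 arrays, against 6.28, 5.74, 7.38 and 6.48 on the control arrays. It was detected on 3 K14 arrays and 1 control array, and the difference was 1.5 ± 0.38 (adjusted p = 0.509). Ncapd2, a condensin subunit, was 0.52 ± 0.18 higher in K14. The kinetochore genes stood lower in this order of groups, with a median of 0.54: Spc25 at 0.76 ± 0.48 and Ndc80 at 0.54 ± 0.34, both of the microtubule-binding Ndc80 complex, and Cenpa, the centromeric histone, at 0.10 ± 0.25. Anln (anillin), the scaffold of the cleavage furrow, was at -0.07 ± 0.58, with the gut Tcon pair at 2.14 and the other three between -1.0 and -0.58, though 4 of the 8 arrays, both of the spleen Tcon pair among them, were not above background.

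**Figure D3:**
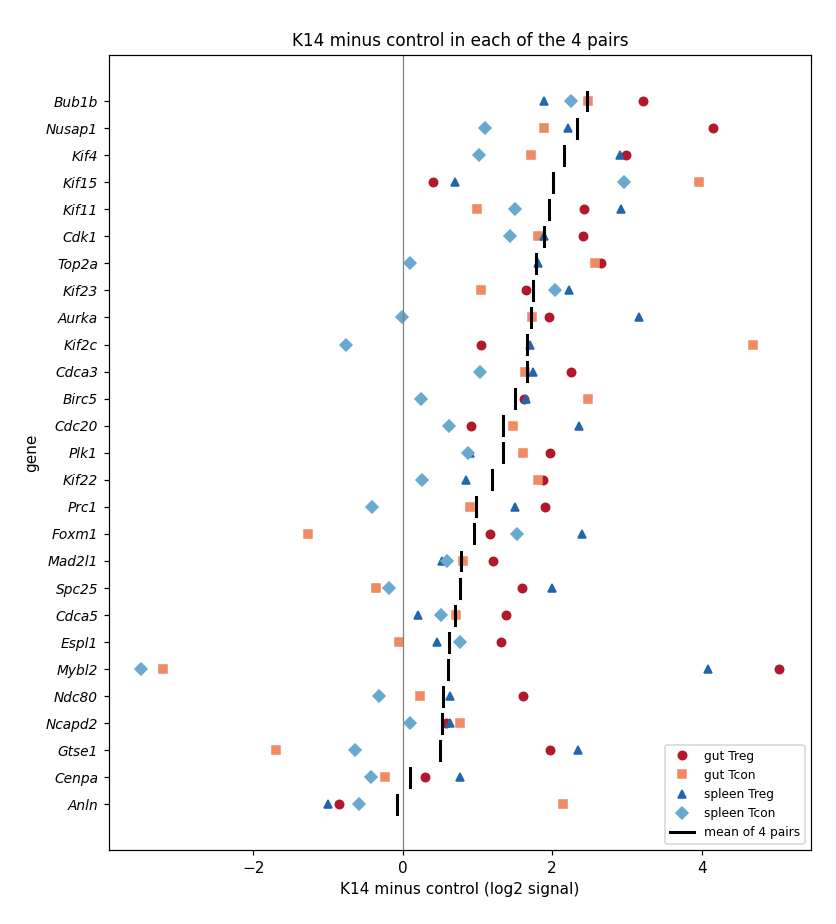
K14 minus control (log2 signal) of the 27 members in each of the 4 pairs (circle gut Treg, square gut Tcon, triangle spleen Treg, diamond spleen Tcon) with the mean as a bar. The means run from 2.46 (Bub1b) to -0.07 (Anln), 26 of 27 lie above 0, and the spleen Tcon diamonds are often the leftmost points.

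Where several probes of a member passed the filter, their mean K14 minus control differences had the same sign. The 3 Cdc20 probes differed by 1.34, 1.75 and 1.37, the 2 Foxm1 probes by 0.95 and 1.10, the 3 Ncapd2 probes by 0.52, 0.49 and 0.35, and the 2 Gtse1 probes by 0.50 and 0.37. Only 2 arrays detected the second Gtse1 probe. The second Cdca3 probe was at 0.41 ± 0.44, against 1.67 for the brighter one, with -0.13 in gut Tcon, -0.49 in spleen Treg and 2.01 in spleen Tcon. In Treg minus Tcon it lay at -1.49, opposite in sign to the brighter probe at 0.70, so the Cdca3 values depend on the probe. The Ncapd2 probes also differed in sign in Treg minus Tcon, at 0.24 for the brightest and -0.12 and -0.15 for the others.

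Genes of neighbouring steps of the cell cycle gave smaller or no median difference between K14 and control. Of the further mitotic genes, listed here beside the 48, 15 of 46 were tested and 14 were higher, with a median of 0.77, 6 at an unadjusted p under 0.05 and 1 lower. Spag5 (astrin), a spindle and kinetochore protein, read 9.37, 8.88, 9.58 and 8.88 on the K14 arrays, against 6.15, 7.42, 7.58 and 6.26 on the control arrays. These did not overlap, at 2.32 ± 0.32, and Cdca2 at 2.27 ± 0.57 and the centromere gene Cenpm at 1.62 ± 0.27 followed. Bora, an activator of Aurka and Plk1, was the 1 gene of that list lower in K14, at -1.24 ± 0.35. Of 33 DNA replication genes 28 were higher, with a median of 0.35 and 7 at an unadjusted p under 0.05, led by the checkpoint mediator Clspn at 2.13 ± 0.59, the chromatin assembly factor Chaf1a at 1.38 ± 0.72 and the ribonucleotide reductase subunit Rrm2 at 1.26 ± 0.31.

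For the entry to the cycle, 4 of 9 G1 cyclin, CDK and E2F genes were higher (median -0.06), with E2f1 at 1.64 ± 0.78, Ccnd1 at 0.67 ± 0.43 and the phosphatase Cdc25a at -0.42 ± 0.74. CDK inhibitors and quiescence genes were higher in 6 of 15 (median -0.03), with the quiescence factor Foxo1 at -0.73 ± 0.22 and the inhibitors Cdkn2b at 0.55 ± 0.28 and Cdkn1c at -0.52 ± 0.36. The anaphase-promoting complex subunits, whose RNA is not confined to dividing cells, were higher in 4 of 10 (median -0.05), with Anapc2 at -0.91 ± 0.21, Cdc16 at 0.33 ± 0.19 and Cdc23 at -0.20 ± 0.36. None of these genes had an adjusted p under 0.05, and the lists were compared by counts and medians with no test between them.

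**Figure D4:**
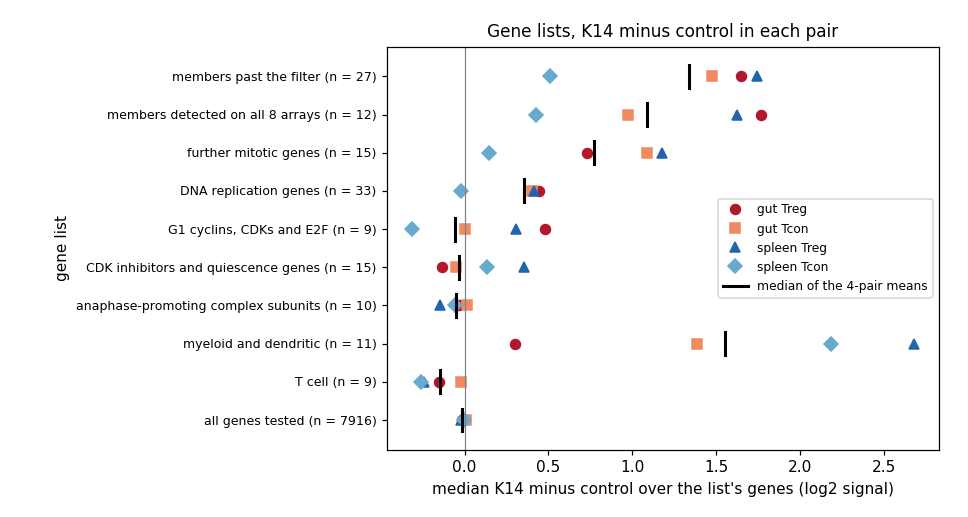
Median K14 minus control (log2 signal) over the tested genes of each list in each of the 4 pairs (symbols as in the legend) and over the means of the 4 pairs (bar). The medians of the 27 members and of the 12 detected on all 8 arrays lie above 0 in every pair, the medians over pair means of the G1, inhibitor and anaphase-promoting complex lists lie between -0.06 and -0.03, and the myeloid list is low in gut Treg and high in spleen.

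Markers of other cells, which the sort gates were to remove, also differed with the genotype. Of myeloid and dendritic genes 10 of 11 were higher in K14, with a median of 1.55, 6 at an unadjusted p under 0.05 and 8 in all 4 pairs, and their summed normalized level (linear scale, 13 probed genes) was 12070 to 21626 on the K14 arrays and 8866 to 10352 on the control arrays, with Itgam and Itgax not detected on any array. Fcer1g, an Fc receptor chain, read 8.36 to 10.47 on the K14 arrays and 5.95 to 7.69 on the control arrays without overlap, and the adaptor Tyrobp 6.77 to 10.02 on the K14 arrays and 6.22 to 7.19 on the control arrays. B and plasma cell genes were higher in 5 of 6, with sums of 2627 to 18212 in K14 and 2773 to 6186 in control, and Pax5, Blnk and Jchain not detected. Erythroid genes were higher in 6 of 7, with sums of 3943 to 12034 in K14 and 2933 to 5414 in control and Car2 not detected. The globin gene Hba-a1 read 8.43 to 11.82 on the K14 arrays and 6.29 to 8.41 on the control arrays, again without overlap. Cytotoxic NK and CD8 genes were higher in 4 of 6, with sums of 12056 to 40298 in K14 and 11888 to 26836 in control, and Ncr1, Gzmb, Eomes and Cd8a not detected. Cd8b1, the other chain of CD8, was detected on all 8 arrays, at 11.53 to 13.38 in K14 and 9.80 to 12.97 in control, although CD8+ cells were gated out. T cell genes were higher in 1 of 9, with sums of 164331 to 178744 in K14 and 182596 to 203835 in control. By pair the myeloid median was 0.30 in gut Treg, 1.39 in gut Tcon, 2.68 in spleen Treg and 2.19 in spleen Tcon. In the gut Treg pair the summed level was 14979 in K14 and 10352 in control for myeloid genes, 7770 and 4533 for B and plasma cell genes, and 12034 and 5414 for erythroid genes. The part of these cells in the members' differences was not tested.

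Other lists were mostly lower in K14. Epithelial genes were higher in 1 of 5 (sums 1752 to 4385 in K14, 1476 to 9200 in control, with Fabp1, Fabp2, Olfm4 and Lgr5 not detected) and stromal and endothelial genes in 1 of 5 (1461 to 3820 in K14, 3361 to 4757 in control, with Col1a1, Col1a2, Col3a1, Pdgfrb and Cdh5 not detected). Exocrine pancreas genes were higher in 0 of 6, with sums of 943 to 3176 in K14 and 1034 to 68733 in control, the highest on the control gut Tcon array. Of 6 mast cell genes 5 were not detected on any array. Without the gut Tcon pair, the members' median K14 minus control was 1.25, with 15 of 27 higher and 1 lower at an unadjusted p under 0.05. The share of all genes at that p was not computed with a pair left out, here or below, so such counts have no background beside them.

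Whether the genotype difference itself differs between Treg and Tcon was tested with 2 residual degrees of freedom. Of the 27 members, 0 had an adjusted p under 0.05 (limma), as had 0 of 7916 genes (0%), 5 were higher in Treg than in Tcon at an unadjusted p under 0.05, where 2.37% of all genes were, and 1 lower, where 2.50% were. The largest fitted difference was that of Mybl2, at 7.92 ± 0.46 (adjusted p = 0.371). That size sets 4 arrays above background against 4 that were not, and the 4 that were are those through which it passed the filter.

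Mybl2 (B-Myb), the MuvB partner that activates G2 promoters, was high on K14 Treg and control Tcon arrays and not above background on the others. Its raw intensities were 2196.0 on the K14 gut Treg array, against 235.3 on the control gut Treg array, and 722.7 on the K14 spleen Treg array, against 180.6 on the control spleen Treg array. In Tcon the order was the opposite, with 258.3 on the K14 gut array, against 1009.3 on the control gut array, and 166.2 on the K14 spleen array, against 661.5 on the control spleen array. On the log2 scale K14 minus control was 5.03 and 4.08 in gut and spleen Treg, and -3.21 and -3.51 in gut and spleen Tcon. With undetected arrays at the lowest signal above background, Mybl2 was at least 10.5-fold higher in K14 than in control Treg and at least 5.49-fold lower in K14 than in control Tcon. With the authors' log2 values the difference was 3.56 in place of 7.92. One of 3 Mybl2 probes carried this, as the other two were not detected on any array, and the probe's own part in it was not tested.

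Gtse1, detected on all 8 arrays, crossed the same way at smaller size. It read 10.16 and 9.90 on the K14 gut and spleen Treg arrays, against 8.18 and 7.55 on the control ones, and 8.50 and 8.03 on the K14 Tcon arrays, against 10.19 and 8.67 on the control ones. That is 3.33 ± 0.50 (adjusted p = 0.856, rank 15 of 7916 by p). Its second probe gave 1.73 but was above background on only 2 of the 8 arrays, so that size is not measured. Spc25 read 7.32 and 7.43 on the K14 Treg arrays, against 5.72 and 5.43 on the control ones, and 6.0 and 6.74 on the K14 Tcon arrays, against 6.37 and 6.92 on the control ones, a difference of 2.07 ± 0.35 (adjusted p = 0.856). Only 3 arrays detected Spc25, both K14 Treg arrays and the control spleen Tcon array, so in Treg it was at least 1.55-fold higher in K14 and its Tcon pairs, at or below background, hold no measured difference. Kif4 at 1.58 ± 0.39 and Kif11 at 1.43 ± 0.40 completed the 5, with both cell types higher in K14 by the fitted values. No control array detected Kif11, which was at least 3.48-fold higher in K14 in Treg and at least 1.31-fold in Tcon. Kif4 was not above background on either spleen Tcon array or on the control gut Treg array. The size of the difference between cell types is thus not measured for Kif4 or Kif11. Kif15 ran the other way at -2.92 ± 0.47 (adjusted p = 0.856): K14 minus control was 0.40 and 0.69 in gut and spleen Treg, and 3.96 and 2.96 in Tcon, where it was at least 4.79-fold higher in K14. The next lowest were Anln at -1.71 ± 0.99 and Kif2c at -0.59 ± 1.92. The median over the members was 0.59, and leaving out 1 pair moved it between 0.36 (spleen Tcon) and 1.01 (gut Tcon). At an unadjusted p under 0.05, 9 members were higher without gut Tcon and 3 lower without spleen Tcon, with no share of all genes computed for those fits.

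**Figure D5:**
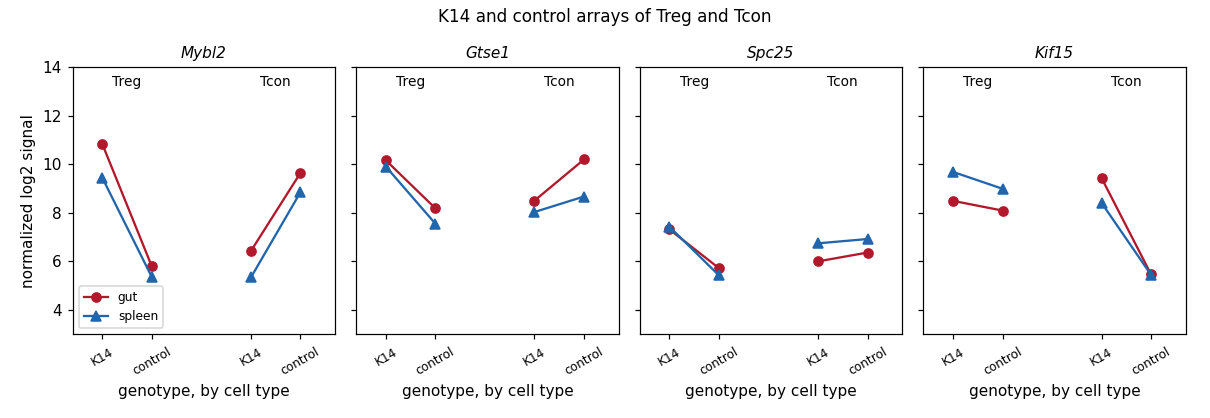
Normalized log2 signal of Mybl2, Gtse1, Spc25 and Kif15 on each array, K14 left of control, for Treg and Tcon, with lines joining the arrays of a pair (red circles gut, blue triangles spleen). In both tissues Mybl2 and Gtse1 lie higher in K14 in Treg and lower in K14 in Tcon, Spc25 is higher in K14 in Treg and near background in Tcon, and Kif15 is higher in K14 mostly in Tcon.

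The genotype difference was then compared between gut and spleen. Again 0 of 27 members and 0 of 7916 genes (0%) had an adjusted p under 0.05 (limma), and 2 members, Kif22 and Plk1, were higher in gut at an unadjusted p under 0.05, where 2.70% of all genes were. Kif22 differed between K14 and control by 1.88 and 1.81 in gut Treg and Tcon and by 0.84 and 0.26 in spleen Treg and Tcon, so gut exceeded spleen by 1.29 ± 0.36 (adjusted p = 0.726). The highest were Kif2c at 2.40 ± 1.55, Top2a at 1.65 ± 0.66 and Anln at 1.43 ± 1.09, and the lowest Foxm1 at -2.01 ± 0.95, Kif23 at -0.79 ± 0.37 and Gtse1 at -0.72 ± 1.67. The sign for Gtse1 turned without the gut Tcon or the spleen Treg pair, and that for Anln without the gut Tcon pair. The members' median was 0.45, against 0.02 over all genes, and ran between 0.19 (spleen Tcon pair left out) and 0.79 (spleen Treg pair left out). The 2 members higher became 1 without the gut Tcon pair and 0 without the spleen Tcon pair, and 1 was lower without the gut Treg pair.

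Treg against Tcon gave a smaller and less even difference. Of 27 members 23 were higher in Treg, with a median of 0.69, 0 at an adjusted p under 0.05 (limma), where 0.707% of all genes were, and 3 (Espl1, Cdk1 and Mad2l1) at an unadjusted p under 0.05, where 8.10% of all genes were. None was lower at that p, where 7.18% of all genes were, and 5 were higher in all 4 pairs, where 11.8% were. These counts lie near the background. By pair the median Treg minus Tcon was 1.59 in K14 spleen and 0.61 in control spleen, and 0.17 in K14 gut and -0.24 in control gut. Espl1 (separase) read 7.13, 5.82, 8.37 and 7.91 on the Treg arrays of K14 gut, control gut, K14 spleen and control spleen, against 5.34, 5.38, 6.35 and 5.58 on the matching Tcon arrays. No Tcon array detected it and 3 of 4 Treg arrays did, through which it passed the filter, at 1.64 ± 0.35 or at least 1.5-fold (adjusted p = 0.144). Kif22 in the same order read 13.05, 11.17, 13.66 and 12.81 on the Treg arrays, against 12.92, 11.11, 11.72 and 11.46 on the Tcon arrays, so the gut arrays of Treg and Tcon were close and those of spleen apart (0.87 ± 0.38). Top2a was likewise 2.42 and 0.71 higher in Treg in K14 and control spleen and 0.17 and 0.10 in gut (0.85 ± 0.43). Cdk1 was higher in every pair, by 0.26 to 1.20 (0.76 ± 0.20, adjusted p = 0.198), with no control array above background. Of the other markers, NK and CD8 genes were lower in Treg in 5 of 6 at an unadjusted p under 0.05 (median -1.47), and exocrine pancreas genes in 6 of 6 (median -1.18, 1 at that p), and their part was not tested. The members' median was 0.33 without the K14 spleen pair, and the 3 members became 6 without the K14 gut pair and 8 without the control gut pair.

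The comparison of Treg minus Tcon between gut and spleen put 23 of 27 members lower in gut, with a median of -0.87, against 0.02 over all genes. None had an adjusted p under 0.05 (limma), as no gene had (0%), and 7 were lower at an unadjusted p under 0.05, where 3.70% of all genes were: Bub1b, Kif4, Kif22, Plk1, Prc1, Ncapd2 and Cdca3. The lowest fitted value was that of Kif4, at -3.66 ± 0.84 (adjusted p = 0.486), with Treg minus Tcon of -0.46 and -1.73 in K14 and control gut, and 3.51 and 1.62 in K14 and control spleen. Of these sizes only the first is between arrays above background, since neither spleen Tcon array nor the control gut Treg array detected Kif4. Prc1 followed at -2.44 ± 0.81 and Anln at -2.35 ± 1.09. Bub1b was at -1.98 ± 0.41, with Treg minus Tcon of 0.17 and -0.56 in K14 and control gut and 1.60 and 1.97 in K14 and control spleen. The control gut Treg array did not detect Bub1b, so the size of its control gut difference is not measured. The highest were Spc25 at 0.74 ± 1.06, Kif23 at 0.53 ± 0.37 and Foxm1 at 0.39 ± 0.95, of which Spc25 and Foxm1 changed sign without the K14 gut pair or the control spleen pair. Exocrine pancreas genes were lower in gut as well, 6 of 6 with a median of -2.02 and Treg minus Tcon of -3.84 in control gut, and their part was not tested. The count of 7 was 3 without the control gut pair and 2 without the K14 spleen pair.

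Gut against spleen moved few members one way. Of 27, 7 were higher and 20 lower in gut, with a median of -0.28, against -0.07 over all genes, and by pair the median was -0.61 and -0.84 in K14 and control Treg and 0.61 and -0.20 in K14 and control Tcon. None had an adjusted p under 0.05 (limma), where 2.37% of all genes had. At an unadjusted p under 0.05, 2 were higher and 3 lower, where 11% and 13% of all genes were, and in all 4 pairs 2 were higher and 4 lower, where 14.3% and 20% were, so these counts lie at or below the background. Leaving out 1 pair gave 1 to 2 higher and 0 to 6 lower, with 0 lower without the K14 Treg pair, 6 without the K14 Tcon pair and a median of -0.08 without the control Treg pair. Mybl2 was higher in gut in each pair, by 0.44 to 1.39 (0.93 ± 0.21, adjusted p = 0.0857), though control Treg and K14 Tcon were not above background in either tissue. Gtse1 was higher by 0.26 to 1.52 (0.72 ± 0.26). Its second probe, which only 2 arrays detected, was at 0.54 ± 0.26, with -0.21 in control Treg. Lower in gut in each pair were Espl1, with differences of -2.10 to -0.20 (-1.14 ± 0.33, adjusted p = 0.126), and Cdca3, with -2.0 to -0.19 (-1.12 ± 0.33, adjusted p = 0.131). The second Cdca3 probe was at -0.49 ± 0.42, with 0.98 in control Tcon, so the Cdca3 direction in every pair depends on the probe. Espl1 was not above background on any Tcon array, so its Tcon pairs hold no measured difference. Cells of each tissue were prepared apart, so tissue and preparation cannot be told apart.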

How the data were processed

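RNA of 8 sorted, pooled cell samples was labelled and hybridised to Illumina mouse arrays, 1 array each. The authors deposited non-normalized bead intensities with a detection p-value per probe and array, per the file headers, and log2 values that they normalized by a method not given in the sources used here (column medians 8.28 to 8.30). Depth has no counterpart on arrays, and their number limits the precision.

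Here, intensities were background-corrected with limma 3.58.1 (R 4.3.3; normal-exponential fit from detection p, offset 16), quantile-normalized and taken to log2. Of 25697 probes 23978 had 1 gene symbol and 1719 none. Kept were 10021 named probes that 2 or more arrays detected (p under 0.05), and each of 7916 genes was read from its brightest probe. Pairs that share tissue and cell type by the labels (or the matching 2 factors) were blocks in limma, with 3 residual degrees of freedom for differences and 2 for differences between differences, and p-values were adjusted by Benjamini-Hochberg over all genes. They measure only the spread between these pooled arrays. The scripts were tested on simulated data.

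The members and lists were chosen with earlier results of these data known. Named with values on all arrays were the 12 members with the largest K14 minus control difference of 1 direction in 4 pairs, 4 each for Treg minus Tcon and gut minus spleen, the 3 highest and 3 lowest for each difference between differences, and 3 genes per pathway list. Promoters were shown for up to 6 of the 12 with a CHR. Others named (such as Bora, H2-Ab1, Il2ra, the markers Fcer1g, Tyrobp, Hba-a1 and Cd8b1, and Bub1b, Kif4, Kif11, Kif22 and Plk1 where they are members at an unadjusted p) were chosen after their values were seen. Alternatives covered background, offset, normalization, filter, probe choice, design and each pair left out.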

Additional observations from a re-analysis of the deposited data

Results flagged for a closer look

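The 3 highest and 3 lowest members of each difference between differences were screened here for opposite signs. Between cell types, 3 of those had a fitted genotype difference (K14 minus control) of opposite sign in Treg and Tcon, in every pair. Cenpa, detected on all 8 arrays but not among those screened, crossed as well. Its difference was 0.30 and 0.76 in gut and spleen Treg and -0.23 and -0.43 in gut and spleen Tcon. For Mybl2 the difference between the cell types was 7.92 on the log2 scale (adjusted p = 0.371 in limma), with 5.03 and 4.08 in gut and spleen Treg and -3.21 and -3.51 in gut and spleen Tcon, each a difference between an array above background and one that was not. For Gtse1 it was 3.33 (adjusted p = 0.856), with 1.97 and 2.35 in Treg and -1.69 and -0.64 in Tcon. For Spc25 it was 2.07 (adjusted p = 0.856), with 1.59 and 2.0 in Treg and -0.36 and -0.18 in Tcon, where 1 of 4 arrays was above background, so its Tcon direction is not measured. Of those screened, Kif4 had Treg minus Tcon of opposite signs in gut and spleen, at -3.66 (adjusted p = 0.486 in limma). It was -0.46 and -1.73 in gut and 3.51 and 1.62 in spleen, though neither spleen Tcon array nor the control gut Treg array was above background. Among members not screened, Ncapd2 (-0.38 and -0.20 in K14 and control gut, 1.03 and 0.50 in K14 and control spleen) had opposite signs by its brightest probe. Its other detected probes read -0.19 and -0.90 in control spleen, below 0 as in gut, so this depends on the probe. Cdca5 (-0.16 and -0.83 in gut, 0.22 and 0.53 in spleen), which the control gut Treg array did not detect, had opposite signs as well. None of these differences passed the adjusted threshold. With 1 array per combination, no array could be set against others of its own group.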

How the results depend on the processing

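No member reached an adjusted p under 0.05 under any alternative run. The share of all genes at an unadjusted p under 0.05 was not computed for the alternatives or with a pair left out. The counts of members at that p in this section therefore have no background to be set against. The median K14 minus control over members was 0.65 with the authors' log2 values and 0.62 with no detection filter (41 members). At an unadjusted p under 0.05, K14 minus control had 9 members higher with detection on all 8 arrays (12 members, an alternative chosen after seeing the data). Gut minus spleen had 1 higher with the authors' values, 1 higher and 1 lower with detection on all 8 arrays, 5 lower with no filter, 0 higher in the additive fit, and 0 higher and 0 lower with no replicate block, that is without the pairs that the labels give. The genotype difference in Treg minus Tcon had 8 higher with no background correction and 3 higher and 0 lower with detection on all 8 arrays. The genotype difference in gut minus spleen had 1 higher with median centring and 1 with every probe on its own, and Treg minus Tcon had 1 lower with every probe on its own.

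With 1 pair left out, the members' median ran from 1.13 to 1.58 for K14 minus control, with 13 to 17 higher and 0 to 1 lower. It ran from 0.33 to 0.93 for Treg minus Tcon (2 to 8 higher, 0 to 1 lower), from -0.45 to -0.08 for gut minus spleen (1 to 2 higher, 0 to 6 lower), from 0.19 to 0.79 for the genotype difference between tissues (0 to 3 higher, 0 to 1 lower), from 0.36 to 1.01 for that between cell types (4 to 9 higher, 1 to 3 lower), and from -1.25 to -0.54 for Treg minus Tcon between tissues (2 to 7 lower).

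Signs turned for 5 named values. Kif2c in the genotype difference between cell types was 0.18 with the authors' values and ran from -3.31 to 2.14 (above 0 without gut Tcon) with 1 pair left out. Between tissues, Anln ran from -0.065 (without gut Tcon) to 2.93, and Gtse1 from -2.55 to 1.12 (above 0 without gut Tcon, and at 0.78 without spleen Treg). In Treg minus Tcon between tissues, Spc25 ran from -0.35 (without control spleen; -0.24 without K14 gut) to 1.83, and Foxm1 from -0.83 (without K14 gut; -0.04 without control spleen) to 1.61. The cause was not tested. The Mybl2 difference between cell types was 3.56 with the authors' values, 4.68 with no background correction and 6.59 with an offset of 50, and that of Kif4 between tissues was -1.58 with the authors' values. Over all genes, adjusted calls were 56 for Treg minus Tcon, against 100 with the authors' values and 2 with no filter, and 188 for gut minus spleen, against 468 and 125. Signals not above background on some arrays limit the size of differences in Cdk1, Bub1b, Nusap1, Kif11, Kif15, Kif4, Kif2c, Aurka, Birc5, Cdca5, Anln, Ndc80, Spc25, Mybl2 and Espl1.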
